A study of Mus musculus with 8 samples.

Results

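The mouse genes whose symbols run from Zfp500 to Zfp999 are a numbered block of protein-coding zinc finger genes. They were followed across an RNA immunoprecipitation sequencing (RIP-seq) experiment, in which RNA that comes down with an antibody is sequenced beside the RNA of the starting lysate. Of the 203 protein-coding genes with such a symbol in RefSeq, 181 were matched by position to a row of the deposited count table, which holds 55401 genes. The block was chosen by measured values: Zfp825 was among the largest falls against Input in these same libraries. Every value set against Input is therefore given below as a description, and only the comparison between the antibodies, which that choice did not use, is read as a test.

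The libraries came from C57BL/6 mice, from tissue labelled hippocampus, and fell into 3 groups. CaMKIIβ RIP held 3 libraries made with an antibody to CaMKIIβ, a subunit of the calcium/calmodulin-dependent kinase that is abundant in neurons. IgG RIP held 3 libraries made with non-specific immunoglobulin, and Input held 2 libraries of RNA without immunoprecipitation. The labels used here give neither age nor sex, name no treatment or altered allele, and do not say whether replicates came from separate animals, so p-values measure only the spread between these libraries.

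Most proteins of this block carry arrays of C2H2 zinc fingers, short loops that hold a zinc ion and read DNA a few bases at a time. Many join these fingers to a KRAB domain, which recruits TRIM28 and, through it, the histone methyltransferase SETDB1, so that retroviral repeats and other targets are packed into silent chromatin. Genes of the KRAB type lie in tandem clusters that grew by duplication, and neighbours in a cluster are often close copies of each other. Other members have no KRAB domain and act as neural regulators, cofactors or ribosome-associated proteins.

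The promoters of 5 members on which the results turn are shown, because they cover the gene that led to the choice of the block (Zfp825), 3 neighbours from one chromosome 17 cluster (Zfp994, Zfp946 and Zfp983) and the member with the largest excess over Input among those past the threshold in CaMKIIβ RIP (Zfp777). Each is the 250 bases before the RefSeq transcription start in GRCm38.p6, written 5′ to 3′ on the gene's strand, with matches on either strand in capitals to the ETS core CCGGAAG, the CCAAT box, the GC box GGGCGG or the YY1 core AAGATGG. Matches of different motifs may overlap and then form one run of capitals. The regions are chr13:74493962-74494211 (minus strand), chr17:22225615-22225864 (minus), chr17:22423952-22424201 (plus), chr17:21650361-21650610 (plus) and chr6:48047795-48048044 (minus), in that order.
Zfp825: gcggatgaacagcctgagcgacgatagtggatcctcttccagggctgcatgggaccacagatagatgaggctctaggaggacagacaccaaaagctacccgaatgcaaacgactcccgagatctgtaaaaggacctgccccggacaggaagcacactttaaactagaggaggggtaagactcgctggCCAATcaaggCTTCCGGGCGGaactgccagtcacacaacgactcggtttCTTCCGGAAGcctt
Zfp994: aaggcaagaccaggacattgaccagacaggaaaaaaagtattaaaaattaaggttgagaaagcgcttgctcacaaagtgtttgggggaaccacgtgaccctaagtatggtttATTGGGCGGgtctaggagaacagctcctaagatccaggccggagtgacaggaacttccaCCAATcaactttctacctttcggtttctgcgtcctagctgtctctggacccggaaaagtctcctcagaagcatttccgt
Zfp946: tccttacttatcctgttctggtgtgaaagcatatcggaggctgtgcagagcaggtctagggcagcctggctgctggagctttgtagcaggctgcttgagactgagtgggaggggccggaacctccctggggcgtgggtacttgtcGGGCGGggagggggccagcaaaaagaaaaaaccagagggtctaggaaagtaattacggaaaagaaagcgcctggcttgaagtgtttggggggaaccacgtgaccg
Zfp983: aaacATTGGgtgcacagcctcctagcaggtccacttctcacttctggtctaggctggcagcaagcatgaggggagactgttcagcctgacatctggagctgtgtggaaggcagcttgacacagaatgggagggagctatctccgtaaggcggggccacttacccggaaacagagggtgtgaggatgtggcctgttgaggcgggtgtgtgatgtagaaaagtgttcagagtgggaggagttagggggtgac
Zfp777: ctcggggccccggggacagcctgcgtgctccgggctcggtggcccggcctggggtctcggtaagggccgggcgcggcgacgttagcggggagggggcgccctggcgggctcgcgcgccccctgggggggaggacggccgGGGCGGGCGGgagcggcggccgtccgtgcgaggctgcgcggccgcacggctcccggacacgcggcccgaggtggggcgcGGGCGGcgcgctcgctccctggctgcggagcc

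CCAAT, the core of the CCAAT box that NF-Y reads, was one of 4 letter strings counted. It occurred in 55.6% of the 151 member promoters in the RefSeq table, against 36.3% of 17492 protein-coding promoters of the same length. Among members lying in tight runs along a chromosome, as defined below, the share was 66.7% of 69 promoters, and among the other members it was 46.3% of 82. Zfp825 had 1 match, Zfp994 had 2, Zfp983 had 1, and Zfp946 and Zfp777 had none in this window. CCGGAAG occurred in 15.2% of member promoters and 9.13% of all, and 3 matches lay before the RefSeq start of Zfp825. Of these, 2 share the stretch CTTCCGGAAG, read on opposite strands, and that stretch lies inside the counted gene. GGGCGG, which SP1 reads, occurred in 42.4% against 42.7%, and AAGATGG in 3.97% against 4.1%. The stretch for Zfp777 had 84% G and C and 42 CG steps, against 47.6% and 8 for Zfp994 and a median of 55.2% over all. It lies wholly inside the counted gene, 867 bases downstream of that gene's start in the deposited table, so it is upstream of the RefSeq start only. The stretches for Zfp825 and Zfp994 overlap their counted genes by 31 and 2 bases. These are counts of letters in a fixed window, and binding was not measured.

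Depth ranged from 17273957 to 28138289 counts per library. CaMKIIβ RIP replicate 2 stood apart from the rest: it had the lowest depth and counts at 19247 genes, while the other libraries had counts at 24865 to 31152. It detected 147 of the members, against 160 to 169 in the others, and counts with and without it are given below. The labelled tissue was checked against lists of marker genes. Gabra6, a defining receptor subunit of cerebellar granule cells, stood at 185 to 260 CPM in CaMKIIβ RIP, 207 to 229 CPM in IgG RIP and 407 to 409 CPM in Input, where CPM is the count rate scaled for library size. Among 9 hippocampal markers, the mean levels in CaMKIIβ RIP, IgG RIP and Input ran from 0.479, 1.65 and 2.46 CPM for Spink8 to 946, 1027 and 704 CPM for Zbtb20, and Wfs1 stood at 80.9, 67.8 and 50.4 CPM. No matched marker of the 8 lists was at 0 in any group, so markers of hippocampal and of cerebellar neurons were both detected. In Input the summed levels were 4280 to 4417 CPM for 8 granule cell markers and 4113 to 4130 CPM for 6 Purkinje cell markers. Itpr1 carried most of the Purkinje cell sum, at 2436 and 2493 CPM, whereas Pcp2 stood at 34.5 and 31.0 CPM. For the 9 hippocampal markers the sum was 989 to 1011 CPM. Such sums depend on which genes are listed.

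Transcripts of the block were of middling abundance. Their median level in Input was 15.8 TPM (a scale of levels per transcript length), against 12.2 TPM for all 19199 protein-coding genes matched. In Input, 159 members reached 1 TPM and 115 reached 10 TPM. The 5 highest were Zfp706 at 140 ± 3.2 TPM, Zfp871 at 109 ± 3.4, Zfp521 at 88.7 ± 5.4, Zfp740 at 84.7 ± 0.96 and Zfp644 at 81.6 ± 2.7 (SD, n = 2). Zfp706, a small protein that in mouse embryonic stem cells promotes exit from self-renewal, was above Zfp871 by more than these SDs, while the ranges of one SD around Zfp521 and Zfp740 overlapped, as did those around Zfp740 and Zfp644.

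At the other end, 8 members had no count in any library: Zfp534, Zfp600, Zfp616, Zfp708, Zfp735, Zfp936, Zfp980 and Zfp987. Zfp708, which in mice keeps methylation on a class of retroviral repeat, shares 96.4% of its exonic bases with another annotated gene, and how reads in shared bases were counted is not given in the sources used here. In all, 48 members share exonic bases with another gene, 13 of them over more than 10% of their length. A further 12 members had counts but too few to be tested anywhere. The filter on low counts left 156 members for CaMKIIβ RIP against IgG RIP, 159 for CaMKIIβ RIP against Input and 161 for IgG RIP against Input.

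The block as a whole was less represented in RNA of either immunoprecipitate than in Input. Its members took 0.41%, 0.385% and 0.42% of all counts in the CaMKIIβ RIP libraries, 0.418%, 0.421% and 0.416% in the IgG RIP libraries, and 0.5% and 0.502% in Input. Every RIP library was thus below both Input libraries. In CaMKIIβ RIP against Input the median log2 fold change of the 159 members tested was -0.52, against -0.12 for all genes tested and 0.01 for protein-coding genes. In IgG RIP against Input it was -0.36 for 161 members, against -0.02 for all genes and 0.08 for protein-coding genes. Per library, the median shift of the members lay between -0.61 and -0.43 in CaMKIIβ RIP and between -0.40 and -0.30 in IgG RIP. These values compare RNA that came down with an antibody with RNA of the starting lysate. Why they differ was not tested.

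Counts of members past the threshold, an adjusted p under 0.05 in edgeR's quasi-likelihood test over all genes, ran the same way. In CaMKIIβ RIP against Input 8 members were called higher and 22 lower, where 5.06% of all genes tested were called higher and 3.4% lower. In IgG RIP against Input 30 members were called higher and 78 lower, where 20.1% of all genes were called higher and 18.7% lower. Among all 8 members called higher and all 22 called lower in CaMKIIβ RIP, each was called in the same direction in IgG RIP, and the 2 contrasts share the Input libraries. Libraries did not overlap in CaMKIIβ RIP against Input for 28 members in the higher direction and 81 in the lower, where 20.6% and 26.5% of all genes did so. In IgG RIP against Input it was 36 and 91 members, where 28.9% and 31.5% of all genes did so. These contrasts led to the choice of the block, and nothing is read from its shares against the background. Members that passed the filter on low counts through Input, such as Zfp820 and Zfp947, are included in these counts. The calls for CaMKIIβ RIP rested on few libraries: without CaMKIIβ RIP replicate 1 none were made for members, where 0% of 21439 genes were called. Without CaMKIIβ RIP replicate 2 there were 21 higher and 41 lower, where 11.3% and 7.39% of all genes were called. Without CaMKIIβ RIP replicate 3 there were 6 higher and 26 lower, where 4.79% and 3.99% were called.

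**Figure D1:**
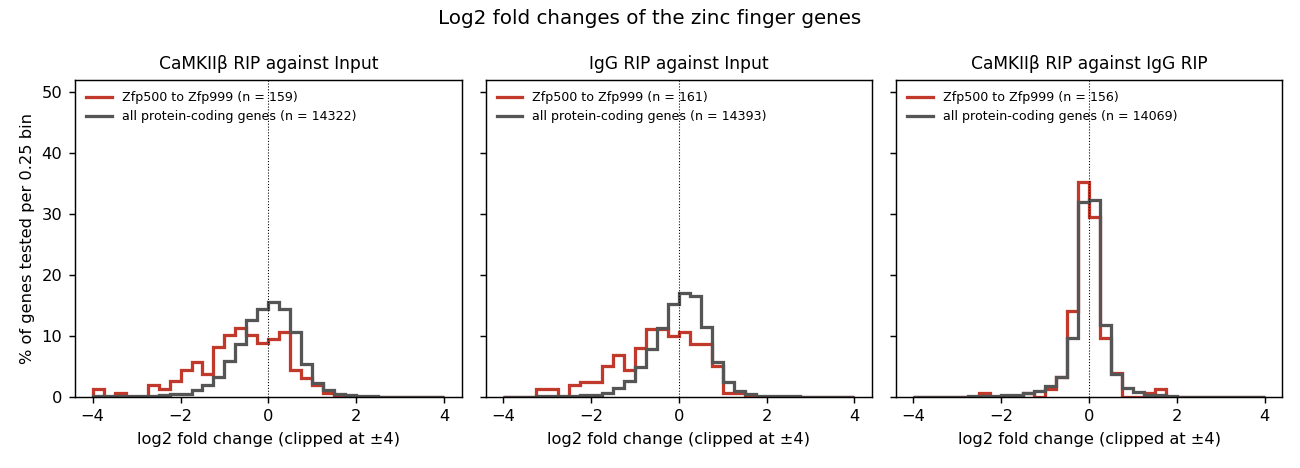
Distribution of log2 fold changes of zinc finger genes Zfp500 to Zfp999 and of all protein-coding genes, one panel for each comparison, with the percentage of genes tested per bin of 0.25 on the vertical axis, values beyond 4 either way drawn at the edge and a dotted line at 0. The members lie left of the protein-coding genes in both panels against Input (medians -0.52 and -0.36, against 0.01 and 0.08) and around 0 between the antibodies (median -0.03).

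Several marker lists moved with the same contrast, and their part in the result was not tested. The summed level of 5 astrocyte markers was 7871 to 9320 CPM in CaMKIIβ RIP and 8715 to 10004 CPM in IgG RIP, against 3883 to 3966 CPM in Input. For 8 cerebellar granule cell markers it was 6528 to 7244 CPM in CaMKIIβ RIP and 6696 to 7064 CPM in IgG RIP, against 4280 to 4417 CPM in Input. Fat2 carried that excess: the sum of the other 7 was 2316 to 2646 CPM in CaMKIIβ RIP and 2408 to 2493 CPM in IgG RIP, against 2810 to 2850 CPM in Input. For 9 hippocampal neuron markers it was 1063 to 1400 CPM in CaMKIIβ RIP and 1327 to 1390 CPM in IgG RIP, against 989 to 1011 CPM in Input. Of these 9, 6 were called higher and 2 lower in IgG RIP against Input. Zbtb20 carried most of that sum and of its excess, at means of 946, 1027 and 704 CPM in CaMKIIβ RIP, IgG RIP and Input. Means of Neurod6, Spink8 and Ociad2 were lower in both RIP groups than in Input. For 3 blood genes the sum was 169 to 317 CPM in CaMKIIβ RIP and 151 to 169 CPM in IgG RIP, against 294 to 297 CPM in Input. Sums for Purkinje cell, oligodendrocyte, microglia and vessel markers were also above Input in every RIP library. In that order, the lowest RIP sums were 7353, 8984, 80.9 and 169 CPM, against at most 4130, 5233, 68.2 and 91.6 CPM in Input. Blood genes alone had lower sums, and in CaMKIIβ RIP their range overlapped that of Input. Genes of the Purkinje cell and oligodendrocyte lists were called in both directions in IgG RIP against Input.

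Zfp825 (ENSMUSG00000069208.9, GRCm38 chr13:74480054-74493992, minus strand) had counts of 45, 88 and 0 in the CaMKIIβ RIP libraries, 20, 13 and 17 in IgG RIP, and 102 and 135 in Input. On the scaled scale these were 1.88, 5.13 and 0 CPM in CaMKIIβ RIP, 0.905, 0.606 and 0.638 CPM in IgG RIP, and 5.14 and 5.66 CPM in Input. The IgG RIP libraries lay close together and far below Input, whereas the CaMKIIβ RIP libraries spread from no count to almost the level of Input. The count of 0 in CaMKIIβ RIP replicate 3 allows up to 0.147 CPM, counting error only, at 3 counts in that library. The log2 fold change was -2.90 ± 0.32 (SE) in IgG RIP against Input. In CaMKIIβ RIP against Input it was -1.25 ± 1.30, and it became -2.47 without replicate 2 and -0.66 without replicate 3. Zfp825 was thus far below Input in IgG RIP, whereas it was not past the threshold in CaMKIIβ RIP. The reason given for choosing the block names no RIP group.

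**Figure D2:**
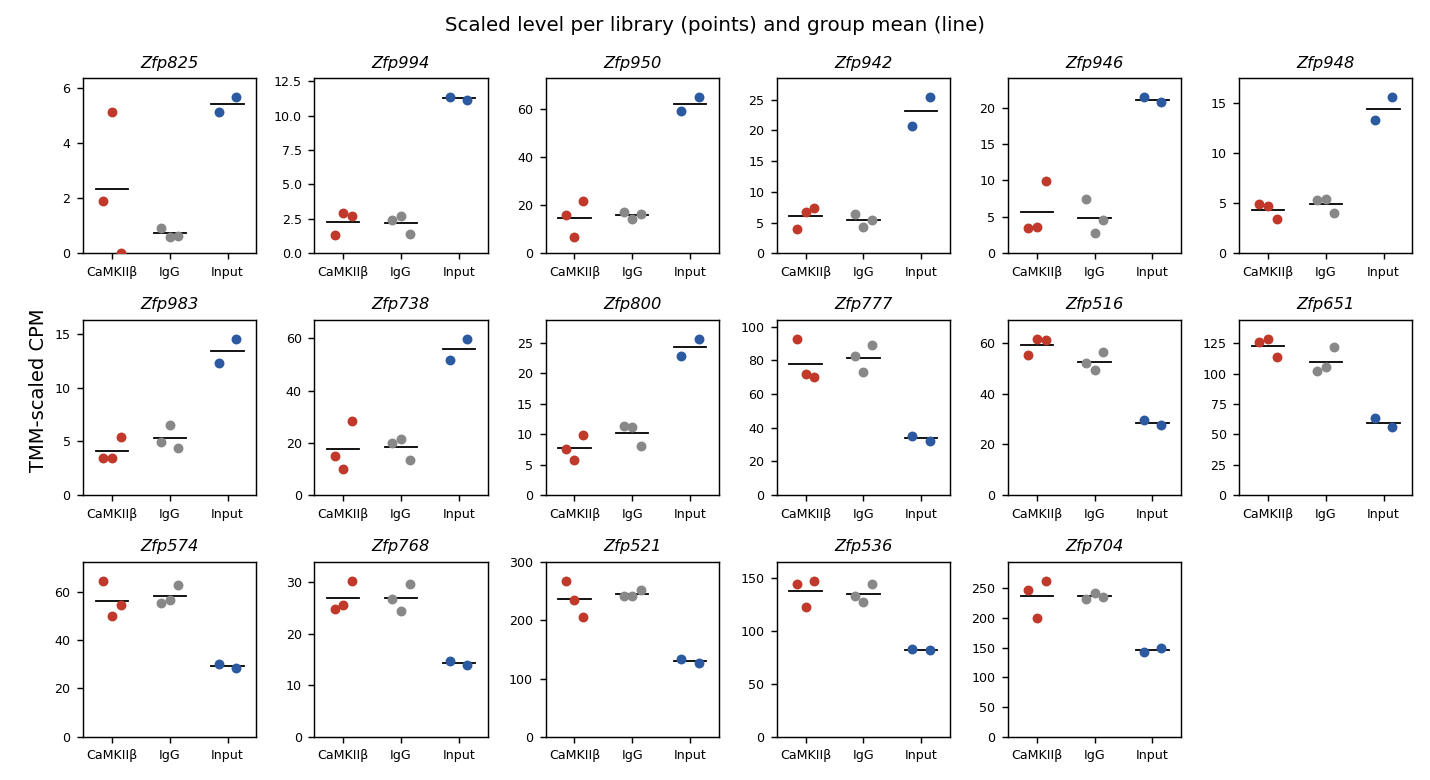
Scaled CPM in each library for named zinc finger genes, one panel per gene with its own vertical axis starting at 0; points are the 3 CaMKIIβ RIP, 3 IgG RIP and 2 Input libraries, left to right, and lines the group means. Zfp825 spreads from 0 to 5.13 CPM within CaMKIIβ RIP, while Zfp994 lies at 1.29 to 2.91 CPM in CaMKIIβ RIP against 11.2 and 11.3 CPM in Input.

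The genes with the largest deficits against Input, among those past the threshold in CaMKIIβ RIP, were mostly neighbours on chromosome 17. Zfp994 (ENSMUSG00000096433.2, chr17:22197265-22225616) had 1.29, 2.91 and 2.69 CPM in CaMKIIβ RIP, 2.40, 2.7 and 1.43 CPM in IgG RIP, and 11.3 and 11.2 CPM in Input. Its log2 fold change was -2.34 ± 0.43 in CaMKIIβ RIP and -2.37 ± 0.24 in IgG RIP, about 5.06-fold and 5.17-fold below Input. No RIP library came near Input, and the promoter printed above for it holds a pair of CCAAT matches. Among the chromosome 17 genes Zfp942 came next, at 4.003, 6.64 and 7.44 CPM in CaMKIIβ RIP, 6.34, 4.29 and 5.48 CPM in IgG RIP, and 20.8 and 25.4 CPM in Input. Zfp946 had 3.503, 3.61 and 9.93 CPM in CaMKIIβ RIP, 7.47, 2.75 and 4.51 CPM in IgG RIP, and 21.5 and 20.8 CPM in Input. The groups did not overlap for either gene, although Zfp946 spread more within the RIP groups than Zfp942 did. Zfp948 and Zfp983 averaged 4.32 and 4.08 CPM in CaMKIIβ RIP, 4.90 and 5.27 CPM in IgG RIP, and 14.4 and 13.4 CPM in Input.

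The remaining members of that list lay elsewhere. Zfp950 on chromosome 19 had 15.8, 6.70 and 21.8 CPM in CaMKIIβ RIP, 17.2, 14.3 and 16.5 CPM in IgG RIP, and 59.0 and 65.0 CPM in Input. Its counts ran from 115 to 445 per RIP library, so its deficit of -2.12 ± 0.40 in CaMKIIβ RIP and -1.94 ± 0.11 in IgG RIP rests on far more reads than that of Zfp825. Zfp738 on chromosome 13 averaged 17.8 ± 9.4 CPM in CaMKIIβ RIP, 18.3 ± 4.4 CPM in IgG RIP (SD, n = 3 each) and 55.8 ± 5.6 CPM in Input (n = 2). Zfp800 on chromosome 6 averaged 7.76 ± 2.1, 10.2 ± 1.8 and 24.3 ± 1.9 CPM in CaMKIIβ RIP, IgG RIP and Input.

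Position along the chromosomes was not used in choosing the block, and deficits were gathered in some stretches. Runs were defined, after the values had been seen, as 4 or more members with gaps of at most 500000 bases; 12 runs held 77 members. In runs, 2 members were called higher and 13 lower of 64 tested in CaMKIIβ RIP against Input, with a median log2 fold change of -0.81. Outside runs it was 6 higher and 9 lower of 95 (6.32% and 9.47%), with a median of -0.33, where 5.06% and 3.4% of all genes were called. In IgG RIP against Input there were 7 higher and 40 lower of 65 in runs (median -0.71), and 23 higher and 38 lower of 96 outside (24% and 39.6%, median -0.20), where 20.1% and 18.7% of all genes were called. No test is attached to this split.

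The longest run was at chr17:21383748-22867134, from Zfp677 to Zfp945, with 12 members. The median log2 fold change was -1.83 in CaMKIIβ RIP and -1.71 in IgG RIP against Input. Of these, 6 were called lower in CaMKIIβ RIP and 11 in IgG RIP, where 3.4% and 18.7% of all genes were called lower. In 11 every CaMKIIβ RIP library was below both Input libraries, where 26.5% of all genes were so. IgG RIP values ran from -2.45 to -1.35. Zfp820 and Zfp947 passed the filter on low counts through Input, which fixes the sign of their change. Both are included in the counts and medians of the run, and nothing is read from their part in them. Zfp820 in this run had no count in any CaMKIIβ RIP library, counts of 10, 0 and 2 in IgG RIP, and 18 and 25 in Input. Taking 3 counts over the CaMKIIβ RIP group as a floor, Zfp820 was at least 20.1-fold lower there than in Input. At that bound Zfp820 still lies below the CaMKIIβ RIP median of the run, which therefore could not change.

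Another stretch, chr4:147132038-147848366 with Zfp991 to Zfp933, had 4 of 7 members tested, and 4 were called lower in IgG RIP (median -2.13), 1 of them in CaMKIIβ RIP. Of all genes, 18.7% were called lower in IgG RIP and 3.4% in CaMKIIβ RIP. At chr13:67038596-67687071, which includes Zfp738, 5 of 5 members tested were called lower in IgG RIP (median -1.33) and 2 in CaMKIIβ RIP. At chr17:32765496-33110705, from Zfp871 to Zfp563, deficits were smaller, with 6 of 7 called lower in IgG RIP and a median of -0.62. Clusters did not all behave this way. At chr7:127233061-127885996, from Zfp553 to Zfp646, none of 9 members was called lower, 5 were called higher in IgG RIP (median 0.32) and 1, Zfp768, in CaMKIIβ RIP (median 0.45). At chr6:47819266-48086593, which includes Zfp777 and Zfp746, 2 of 4 were called higher in IgG RIP. Of all genes, 20.1% were called higher in IgG RIP and 5.06% in CaMKIIβ RIP. Each run holds few members, and its counts were not tested against these shares. Members of one cluster can be near copies, and how reads that match several genes were counted is not given in the sources used here, so single genes within a run are uncertain.

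**Figure D3:**
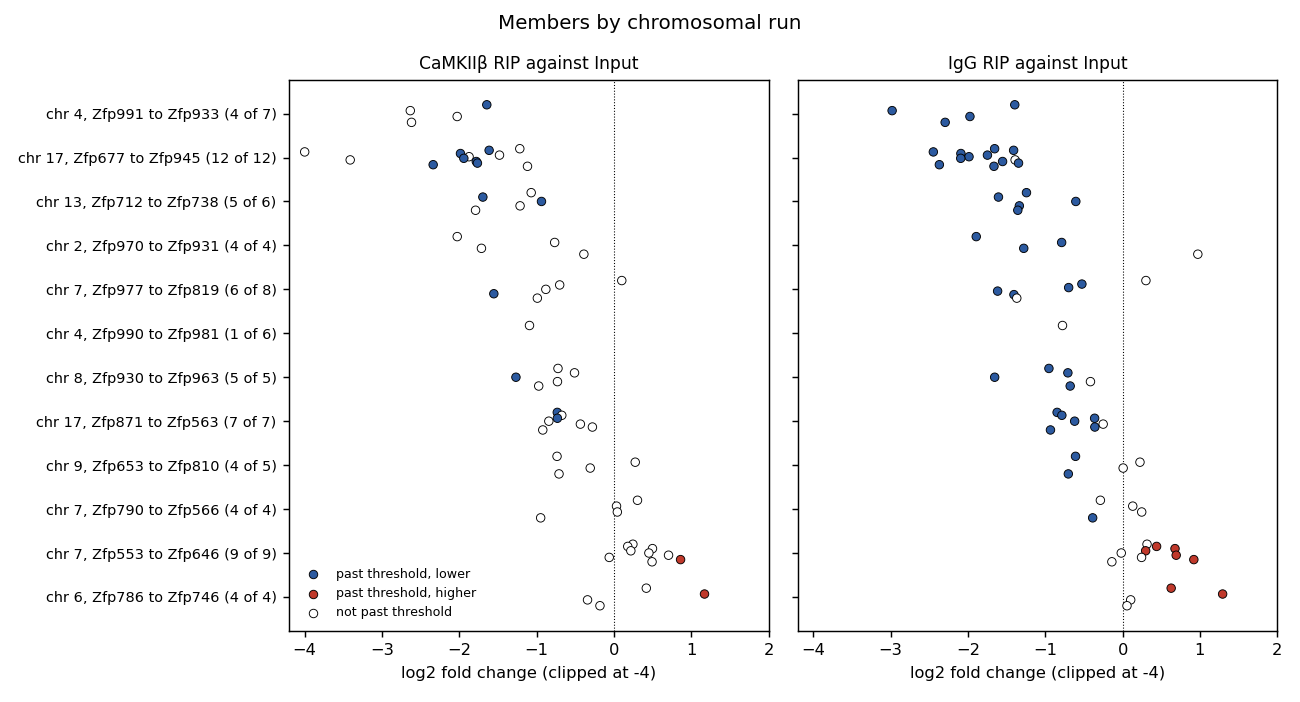
Log2 fold change against Input of each tested member in the 12 runs of neighbouring zinc finger genes, CaMKIIβ RIP in the left panel and IgG RIP in the right, one row per run and one point per gene, filled where the gene passed the threshold (blue lower, red higher); Zfp820 is drawn at the left edge of its panel, -4. The chromosome 17 run from Zfp677 to Zfp945 lies to the left (medians -1.83 and -1.71), and the chromosome 7 run from Zfp553 to Zfp646 mostly above 0 (medians 0.45 and 0.32).

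The largest excess over Input, among members past the threshold in CaMKIIβ RIP, was that of Zfp777. Zfp777 (ENSMUSG00000071477.10, chr6:48024188-48048911, minus strand) had 92.7, 71.6 and 69.9 CPM in CaMKIIβ RIP, 82.3, 73.4 and 89.2 CPM in IgG RIP, and 35.3 and 32.0 CPM in Input. All 6 RIP libraries lay at 69.9 CPM or more, against 35.3 CPM at most in Input, with log2 fold changes of 1.17 ± 0.18 and 1.29 ± 0.10. Its GC-rich stretch is the last of those printed above. Zfp521, a large regulator that drives neural fate in mouse embryonic stem cells, had 268, 235 and 206 CPM in CaMKIIβ RIP, 241, 242 and 252 CPM in IgG RIP, and 134 and 127 CPM in Input. Zfp536, a brain-expressed repressor of neuronal differentiation, had 144, 123 and 147 CPM in CaMKIIβ RIP, 133, 127 and 144 CPM in IgG RIP, and 82.4 and 82.0 CPM in Input. Zfp516, an activator of the brown fat gene Ucp1, averaged 59.2 ± 3.6 CPM in CaMKIIβ RIP, 52.5 ± 3.5 CPM in IgG RIP and 28.5 ± 1.4 CPM in Input. For all 4 genes the RIP and Input libraries did not overlap, and the RIP groups overlapped with each other. Zfp651, Zfp574, Zfp768 and Zfp704 completed the 8 called higher, with log2 fold changes of at least 0.64 in CaMKIIβ RIP and 0.70 to 1.01 in IgG RIP. Zfp704 shares 16.55% of its exonic bases with other annotated genes.

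Members with a described function were listed separately, and 25 of 28 could be tested. In CaMKIIβ RIP against Input 3 were called higher and 2 lower, with a median log2 fold change of 0.36, where 5.06% and 3.4% of all genes were called. For IgG RIP against Input 13 were higher and 6 lower, with a median of 0.42, where 20.1% and 18.7% were called. This median had the opposite sign to that of the whole block in both contrasts. Among neural regulators, Zfp609, which with cohesin loader Nipbl guides migration of cortical neurons in mice, was at 0.24 ± 0.18 in CaMKIIβ RIP and 0.50 ± 0.07 in IgG RIP. Zfp503, a regulator of striatal development, was at 0.72 ± 0.43 and 0.77 ± 0.26. Zfp711, whose human counterpart is an X-linked intellectual disability gene, went the other way, at -1.66 ± 0.47 and -2.03 ± 0.18.

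Zfp711 had 6.09, 2.16 and 7.39 CPM in CaMKIIβ RIP, 4.03, 3.08 and 4.43 CPM in IgG RIP, and 16.7 and 15.2 CPM in Input. All 6 RIP libraries were thus at less than 0.5 of the Input level for this gene, although only IgG RIP passed the threshold. Among cofactors, Zfp592 and Zfp532, which in human cells sit in one complex with ZMYND8, were at 0.48 ± 0.12 and 0.40 ± 0.12 in CaMKIIβ RIP, with 0.60 ± 0.10 and 0.49 ± 0.09 for IgG RIP. Zfp532 shares 28.73% of its exonic bases with other annotated genes. Zfp827, which recruits the NuRD complex to telomeres in human cells, was at 0.39 ± 0.15 and 0.68 ± 0.07. Zfp746, the parkin substrate PARIS that represses Ppargc1a, was at 0.42 ± 0.20 and 0.63 ± 0.09. These 4 cofactors were called higher in IgG RIP and none of them in CaMKIIβ RIP. Zfp644, a partner of the histone methyltransferases G9a and GLP, was called lower in both, at -0.55 ± 0.13 and -0.23 ± 0.07.

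Among members known for silencing, values ran from near Input to far below it. Zfp809, which recognises the primer binding site of retroviruses in mouse stem cells, had 17.5, 12.6 and 16.1 CPM in CaMKIIβ RIP, 16.7, 19.4 and 19.2 CPM in IgG RIP, and 19.6 and 17.4 CPM in Input, with overlapping groups. Zfp568, which silences a placental Igf2 transcript in the mouse embryo, was at 0.03 ± 0.33 in CaMKIIβ RIP and 0.13 ± 0.14 in IgG RIP. Zfp932, which binds endogenous retroviruses in mouse stem cells, had 4.88, 0.117 and 8.32 CPM in CaMKIIβ RIP, 7.79, 5.69 and 5.18 CPM in IgG RIP, and 25.7 and 28.8 CPM in Input. The deficit of Zfp932 was -2.65 ± 0.94 in CaMKIIβ RIP, not past the threshold, and -2.12 ± 0.16 in IgG RIP. Zfp638, which brings the silencing complex HUSH to unintegrated retroviral DNA in human cells, had 114, 84.3 and 102 CPM in CaMKIIβ RIP, 118, 137 and 117 CPM in IgG RIP, and 199.7 and 205 CPM in Input. It was called lower in both contrasts, at -1.06 ± 0.14 and -0.69 ± 0.07.

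Members that work at the ribosome rather than on DNA were near Input or modestly above. Zfp598, a ubiquitin ligase that senses collided ribosomes, was at 0.27 ± 0.14 in CaMKIIβ RIP and 0.42 ± 0.09 in IgG RIP, where it was past the threshold. Zfp622, a maturation factor of the large ribosomal subunit, was at 0.22 ± 0.16 and 0.08 ± 0.11. Zfp593, a factor of the same pathway known from its yeast relative, had at most 0.461 CPM in any library, and 77.9% of its exonic bases overlap another gene, so it was not tested. Of the other listed members, Zfp608 and Zfp618 were at 0.36 ± 0.17 and 0.48 ± 0.24 in CaMKIIβ RIP, with 0.59 ± 0.08 and 0.48 ± 0.18 for IgG RIP, both past the threshold in IgG RIP alone. Zfp507 was likewise called higher in IgG RIP alone, although its change was no smaller in CaMKIIβ RIP, at 0.48 ± 0.13 and 0.45 ± 0.08. In simulated data 34.3% of 2-fold changes were recovered in CaMKIIβ RIP against Input and 83.6% in IgG RIP against Input. A call in IgG RIP alone is therefore not a difference between the antibodies. The imprinted gene Zfp597 was at -0.42 ± 0.28 and -0.36 ± 0.11, called lower in IgG RIP. Zfp819 had at most 0.252 CPM in any library and was not tested. The germ cell factor Zfp541 and the epidermal factor Zfp750 were low, at no more than 2.91 and 5.54 CPM in any library, and neither was called in any comparison.

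Between the antibodies no member passed the threshold. Of 156 members tested in CaMKIIβ RIP against IgG RIP, 0 were called higher and 0 lower by edgeR and 0 by DESeq2, where 0% of all 20566 genes were called in either direction. The smallest adjusted p was 0.982, and 2 members had an unadjusted p under 0.05. The median log2 fold change of the members was -0.03, against -0.02 for all genes. Libraries did not overlap for 3 members in the higher direction and 8 in the lower, where 4.86% and 7.12% of all genes tested did so. The 95% interval of the difference lay within 2-fold on both sides for 99 members and excluded an excess of 2-fold or more for 119. For the other members an excess of 2-fold was not excluded at this depth and number of libraries.

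The 5 members with the smallest unadjusted p were examined one by one. Zfp771 had 14.3, 28.4 and 19.5 CPM in CaMKIIβ RIP, 12, 11.5 and 14.9 CPM in IgG RIP, and 14.4 and 14.2 CPM in Input. Its excess over IgG RIP was 0.70 ± 0.26 on the log2 scale (edgeR, unadjusted p = 0.0244, adjusted p = 0.982), and the lowest CaMKIIβ RIP library lay below the highest IgG RIP library. Zfp638, with the values above, was at -0.30 ± 0.13 (edgeR, unadjusted p = 0.043), and its groups did not overlap. Zfp661 had 5.30, 2.62 and 1.96 CPM in CaMKIIβ RIP, 5.57, 5.64 and 7.40 CPM in IgG RIP, and 6.55 and 6.46 CPM in Input, with a difference of -0.90 ± 0.42 between the antibodies. Zfp644 was at -0.26 ± 0.12, and Zfp703, a transcriptional corepressor studied in breast cancer, at 0.49 ± 0.23. Zfp703 shares 13.53% of its exonic bases with other annotated genes. None of the 5 passed the adjusted threshold.

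Zfp825 itself was at 1.71 ± 1.28 between the antibodies (95% interval -1.16 to 4.57, edgeR, adjusted p = 0.982). The interval covers a deficit of 2-fold and an excess of more than 8-fold. In the chromosome 17 run the differences between the antibodies ran from -0.36 to 0.60 over the 10 tested, with a median of 0.18, and the 95% interval lay within 2-fold on both sides for 3 of them. Zfp994 was at 0.08 ± 0.57 and Zfp777 at -0.06 ± 0.14.

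**Figure D4:**
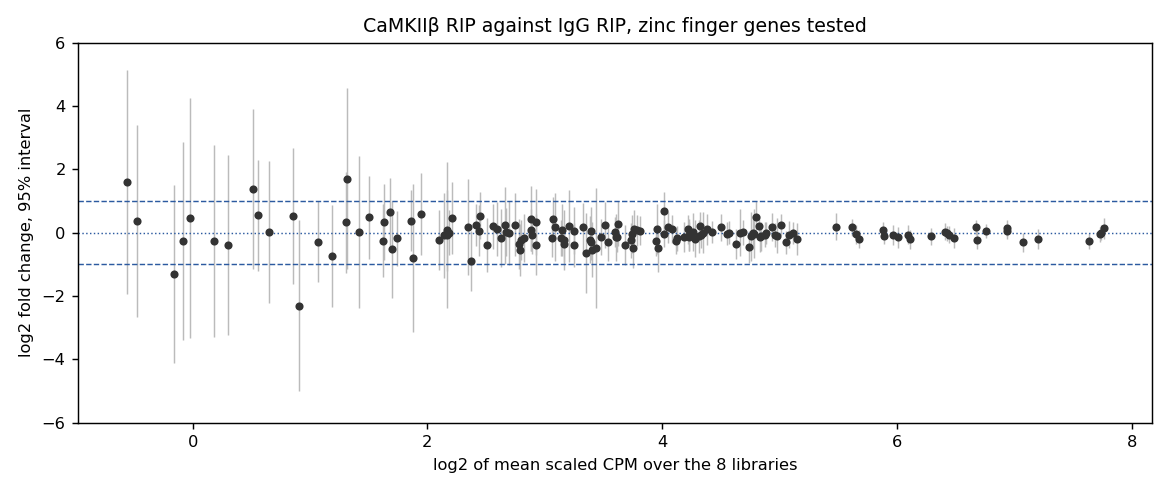
Log2 fold change of CaMKIIβ RIP against IgG RIP for the 156 members tested, with 95% intervals, over the log2 of the mean scaled CPM in the 8 libraries, with dashed lines at 2-fold and a dotted line at 0. Intervals are wide at the left, where Zfp825 lies at 1.71, and narrow at the right, and no member passes the adjusted threshold.

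The partners with which KRAB zinc finger proteins act were taken from a separate list, of which 21 of 22 genes were matched; Trim28 was not analysed here. In CaMKIIβ RIP against Input 2 were called higher and 2 lower, with a median log2 fold change of -0.22, where 5.06% and 3.4% of all genes were called. For IgG RIP against Input 6 were higher and 8 lower, with a median of -0.07, where 20.1% and 18.7% were called. Setdb1 had 87.2, 63.5 and 70.9 CPM in CaMKIIβ RIP, 90.1, 82.8 and 74.1 CPM in IgG RIP, and 71.9 and 68.9 CPM in Input, so its groups overlapped except for IgG RIP against Input, where it was called higher at 0.24 ± 0.09. The HUSH subunit Tasor was called lower, at -1.07 ± 0.21 in CaMKIIβ RIP and -1.25 ± 0.08 in IgG RIP, as was the histone deacetylase Hdac2, at -0.98 ± 0.19 and -0.92 ± 0.09. The NuRD remodeller Chd4 was higher, at 0.73 ± 0.18 and 0.63 ± 0.06, and so was the DNA methyltransferase Dnmt3a, at 0.53 ± 0.10 and 0.48 ± 0.07. The HUSH subunit Mphosph8 was called lower in IgG RIP alone, at -1.33 ± 0.14. The list as a whole did not share the negative median of the zinc finger genes in IgG RIP to the same extent, and that difference was not tested. Between the antibodies 0 of the 21 passed the threshold in edgeR, and 1, Daxx, had an unadjusted p under 0.05.

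Other zinc finger families gave a scale for these values. Among 153 Zfp genes with lower numbers, 4 were called higher and 16 lower of 150 tested in CaMKIIβ RIP against Input (median log2 fold change -0.39), and 31 higher and 57 lower in IgG RIP against Input (median -0.22). Among 63 genes of the Zbtb, Zscan and Zkscan families, which join zinc fingers to BTB or SCAN domains, it was 4 higher and 5 lower of 58 (median -0.03), and 18 higher and 11 lower (median -0.02). The shares of all genes called higher and lower were 5.06% and 3.4% for CaMKIIβ RIP, and for IgG RIP 20.1% and 18.7%. The medians of the higher-numbered Zfp genes, -0.52 and -0.36, were thus the most negative of the 3 families in either contrast. The difference between families was not tested.

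Values were also set against length and level. Of the 88 members tested that were longer than the median, 6 were called higher and 20 lower (22.7%) in CaMKIIβ RIP against Input, and of the 71 shorter ones 2 were called higher and 2 lower (2.82%), where 3.4% of all genes were called lower. The medians were -0.54 and -0.48. In IgG RIP against Input, 22 of 88 longer members were called higher and 46 lower (52.3%). Of 73 shorter ones 8 were called higher and 32 lower (43.8%), where 20.1% and 18.7% of all genes were called. Medians there were -0.36 and -0.42. Across members, and as a description only since genes are not independent replicates, log2 fold change correlated with log2 exonic length at Pearson's r = 0.136 in CaMKIIβ RIP (n = 159) and 0.171 in IgG RIP (n = 161). With log2 TPM in Input, whose libraries both axes share, r was 0.273 and 0.186. The members whose log2 levels followed Zfp825 most closely over the 8 libraries, of 143 compared, were Zfp970 (r = 0.957), Zfp941 (0.895), Zfp639 (0.893), Zfp655 (0.875) and Zfp750 (0.84). In Zfp970, for example, levels were 7.97, 11.4 and 3.86 CPM in CaMKIIβ RIP, 8.01, 6.67 and 7.32 CPM in IgG RIP, and 13.8 and 11.8 CPM in Input. As in Zfp825, CaMKIIβ RIP replicate 2 was the highest and replicate 3 the lowest of its group.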

How the data were processed

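RIP-seq libraries of 3 CaMKIIβ RIP, 3 IgG RIP and 2 Input samples were compared. The deposited values are raw counts per Ensembl gene with exonic lengths; per the submitters' processing notes, reads were trimmed with Trim Galore 0.6.4 and cutadapt 2.10, aligned with STAR 2.7.3a and counted with featureCounts 2.0.1 on GRCm38.p6. No column was left unassigned to a sample. Counting of strand and of multiply matching reads is not given in the sources used here.

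Ensembl genes were named by matching their spans to RefSeq GRCm38.p6 genes, mutual best and at least 0.5 of the joint span; 22 of 203 members had no such match. Members, lists and runs were chosen with earlier results of these data known.

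Each comparison was fitted to its own libraries over all genes with edgeR 4.0.16 in R 4.3.3 (TMM factors; genes kept by filterByExpr at 10 counts and 15 in total; quasi-likelihood F test, Benjamini-Hochberg adjusted p under 0.05). The SE is the fold change over the root of F. CPM uses TMM factors over all 8 libraries, and TPM the deposited lengths. Correlation with Zfp825 used log2 levels. The text names Zfp825, up to 8 members per direction with the largest change among those called in CaMKIIβ RIP against Input whose libraries did not overlap (mean log2 CPM from 1 up), the 5 smallest p between antibodies, the 5 highest TPM, the 5 most like Zfp825 and members with a described role.

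On data simulated from these libraries with 200 changed genes, the test of CaMKIIβ RIP against IgG RIP recovered 41.8% of those changed 2-fold, 85.1% at 4-fold and 93.9% at 8-fold. The tests against Input recovered 34.3% of 2-fold changes for CaMKIIβ RIP and 83.6% for IgG RIP. Same-numbered libraries of different groups did not all deviate together (r from -0.102 to 0.136 over 15355 genes), so numbers were not used as pairs. Alternatives were DESeq2 1.42.0, other scalings and filters, and libraries left out.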

Additional observations from a re-analysis of the deposited data

How the results depend on the processing

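Of 122 recomputed values, 103 stayed within the replicate spread or within 1.5 times the reported count, 19 moved and 0 reversed direction. The 103 include the counts of calls between the antibodies, which were 0 under every setting. All values that moved lay in the contrasts against Input, so the total says little about the calls there. For CaMKIIβ RIP against Input, DESeq2 called 15 members higher and 34 lower, one fit of all 8 libraries 14 and 43, and the replicate block 49 lower; the reported counts were 8 and 22. Calls over all genes moved too: 6.32% higher and 4.08% lower with DESeq2, 8.96% and 7.63% in the one fit, and 10% lower with the block, against 5.06% and 3.4%. For IgG RIP against Input one fit of all 8 libraries called 17 higher and 36 lower (median -0.42) where 30 and 78 were reported, and 8.75% and 7.15% of all genes, against 20.1% and 18.7%. Scaling by library size gave member medians of -0.70 in CaMKIIβ RIP and -0.59 in IgG RIP against Input, beside all-gene medians of -0.29 and -0.25, and removing the trend on length gave -0.42 in CaMKIIβ RIP, beside an all-gene median of 0.09. Leaving out a single CaMKIIβ RIP library, calls in CaMKIIβ RIP against Input ran from 0 to 21 higher and 0 to 41 lower. They were 0 and 0 without replicate 1, where 0% of all genes were called. Without replicate 2 they were 21 and 41, where 11.3% and 7.39% of all genes were called. Without Input replicate 1 or 2 the median was -0.61 or -0.53, and calls are not given since 1 Input library remained. Over all libraries left out in turn, that median ran from -0.61 to -0.49. Leaving out a single IgG RIP library, calls in IgG RIP against Input ran from 28 to 33 higher and 74 to 76 lower. Of all genes, 18.9% to 21.3% were then called higher and 17.9% to 19.8% lower. Over all libraries left out, the median ran from -0.41 to -0.34 there, and from -0.08 to -0.01 between the antibodies. The causes were not tested. The replicate block moved no other count by over 1.5 times, and same-numbered libraries correlated at -0.102 to 0.136. Matching members by start site as well, an alternative chosen after seeing the data, gave 8 higher and 23 lower of 170 tested in CaMKIIβ RIP against Input and 33 and 83 of 172 in IgG RIP. The shares of all genes stayed at 5.06% and 3.4%, and at 20.1% and 18.7%. Between the antibodies 0 members were called under each alternative run, DESeq2 included. Features of the proteins were planned and are not analysed here. With 2 Input libraries, calls against Input rest on little replication, and genes with few counts, such as Zfp820, were tested on little depth.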
